A study of Mus musculus with 2 samples.

Results

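The 42 genes described here encode the main chaperones of the cytosol and mitochondria of mouse cells, their cochaperones and the heat shock transcription factors HSF1 and HSF2. They were chosen by gene symbol, not by a measured threshold, but with earlier results of these data known. They come from the 54532 gene identifiers of a count table, and every one of the 42 symbols matched 1 identifier. The table holds 2 bulk RNA-seq libraries of primary CD8+ T cells from the spleens of wild-type (WT) mice, taken from animals that the labels call ND mice without explaining the letters. The cells of 1 library were cultured for 8 h in RPMI 1640 medium, called complete medium here, and those of the other for 8 h in RPMI 1640 without methionine. The library of complete medium held 14646527 counts and that of methionine-free medium 19647681. The labels do not state age, strain, the number of animals or whether both cultures came from the same animals, and the protocols name a whole-RNA and an mRNA kit without saying which made which library. There was 1 library per medium, so the differences below could not be held against replicates, and they come without p-values.

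Chaperones bind unfolded or partly folded proteins and keep them from aggregating until they reach their native shape. HSP70 proteins act early, on nascent and stretched chains, with DNAJ proteins that deliver clients and start ATP hydrolysis and nucleotide exchange factors that reset the cycle; HSP90 acts late, on kinases, receptors and other near-native clients; the ring complex CCT folds actin, tubulin and WD-repeat proteins inside a closed chamber. Mitochondria have their own HSP70, HSP60, HSP10 and HSP90 for proteins that arrive unfolded through the import channel. HSF1 drives the stress-inducible members when unfolded proteins occupy the chaperones that otherwise hold it inactive. The word inducible below is background on single genes, was not measured here and is not given for every gene it may fit. Methionine is the amino acid that starts every new protein chain in the cytosol.

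Chaperone transcripts as a group took nearly the same share of counts in both media, and the 2 stress-inducible HSP70 genes had the largest differences. Together the 42 genes took 2.49% of all counts of the complete-medium library and 2.43% of the methionine-free one. Within that total the summed shares of 2 groups differed in direction. HSP90 and its cochaperones took 0.969% in complete medium and 0.836% without methionine, and the mitochondrial genes 0.310% and 0.352%. Of the 5 mitochondrial genes only 2 were higher by any size and 3 were lower. Hspa9, on the higher side, held the most counts of the 5 without methionine. A gene counts as measured here when its mean over the 2 libraries reaches 10 counts, which 40 of the 42 did. Hspa1a, Hspa1b, Dnajb4 and Chordc1 were higher without methionine by 1.5-fold or more, 4 of the 40, and no gene was lower by that much. Of all 13041 measured genes, 15.7% were higher and 18% lower by the same size. At 2-fold, 2 of the 40 were higher, Hspa1a and Hspa1b, and none lower, against 5.8% and 9.29% of all genes. This pair shares reads, so its 2 genes are not separate measurements in either count. The fold is the ratio of library-scaled counts, and the range in brackets after a fold is its exact 95% counting interval, which covers counting error only and not the spread between cultures. Pairs of counts or levels are given with complete medium first. In bulk samples fewer cells of a type and less RNA per cell cannot be told apart.

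The median log2 difference of the 40 genes, methionine-free minus complete medium, was 0.08, and that of all 13041 genes 0.04. The interquartile range of the chaperone differences ran from -0.17 to 0.27, and that of all genes from -0.39 to 0.40. Part of that gap goes with count level. For the 3987 genes that averaged 1000 counts or more, the range was narrower, from -0.23 to 0.34, around a median of 0.06. The chaperone range covers all 40 genes, of which 34 reached that level. Of the 40, 24 had a positive and 16 a negative log2 difference, beside 6830 and 6211 of all 13041 genes. Most of these transcripts are abundant: 24 of the 42 were among the 1000 genes with the highest mean count and 5 among the first 100. Among the 3987 genes whose mean reached 1000 counts, 9.43% were higher and 9.71% lower by 1.5-fold or more, and of the 34 chaperone genes among them 1, Chordc1, was higher and none lower.

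**Figure D1:**
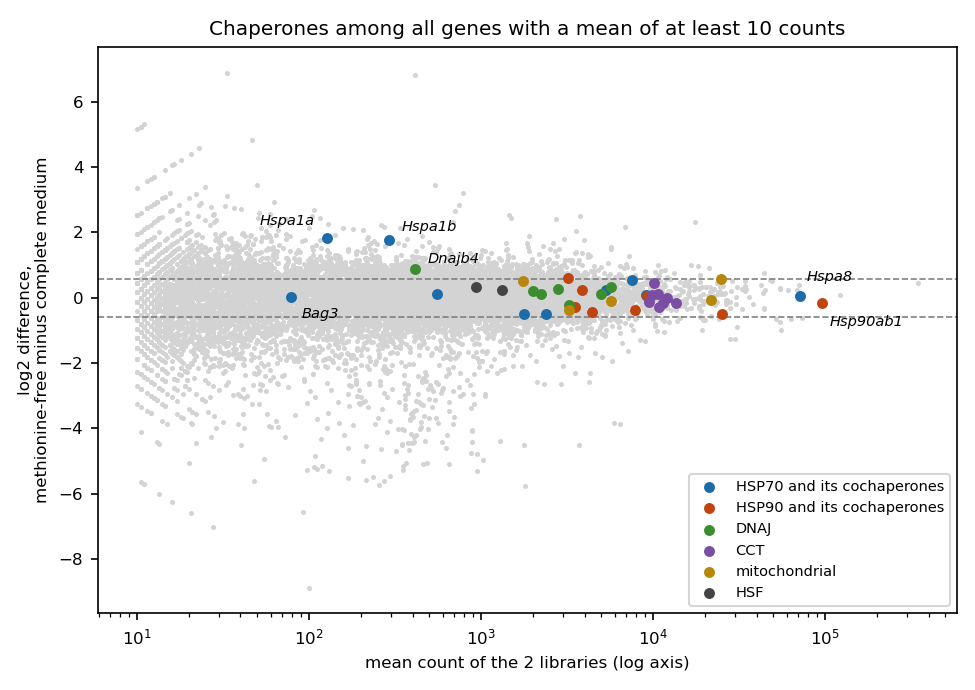
Log2 difference (vertical axis, methionine-free minus complete medium) against the mean count of the 2 libraries (horizontal log axis) for the 13041 measured genes, with the 40 measured chaperone genes coloured by role and the dashed lines at 1.5-fold. Most chaperone genes lie to the right, at high counts, and between the lines; Hspa1a, Hspa1b and Dnajb4 lie above the upper line at lower counts.

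The HSP70 genes split between the inducible pair and the rest. Hspa1a and Hspa1b encode the stress-inducible cytosolic HSP70 and lie close together on chromosome 17, Hspa1a at 34969190 to 34972156 and Hspa1b at 34956436 to 34959238, both on the minus strand (GRCm38, the assembly called mm10 elsewhere). Hspa1a went from 44 counts in complete medium to 211 in the other library, or 3.0 and 10.8 CPM (counts per 1000000 scaled counts of the library), and was 3.59-fold higher (2.59 to 5.09). Hspa1b had 104 and 477 counts, or 7.08 and 24.3 CPM, and was 3.44-fold higher (2.78 to 4.29). The methionine-free library was the high one for both genes, at low levels in each. Of the 50-base stretches of the Hspa1a transcript 58.8% also stand in Hspa1b, so reads cannot be assigned with certainty between them, and the labels do not say how reads that match more than 1 gene were counted. Summed, the pair had 148 and 688 counts and was 3.48-fold higher (2.91 to 4.19). Hspa1a took 29.7% of the pair's counts in complete medium (Wilson 95% interval 23.0 to 37.5%) and 30.7% without methionine (27.3 to 34.2%). The split of the counts was thus alike. Because the counting of shared reads is not stated, it cannot be read as the split between the transcripts.

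Hspa1a and Hspa1b share reads, so their like folds are not separate measurements, and any part of the promoter in them was not tested. The start regions of this pair are shown because they have nearly the same sequence. Each runs from 250 bases before to 50 bases after the start that RefSeq annotates on GRCm38.p6 (chr17:34972107-34972406 and chr17:34959189-34959488, minus strand), and the 2 differ at 4 of 300 bases. Capitals mark the core of a heat shock element, the site that HSF trimers bind, with its units head to head (GAANNTTC). In both genes its first base lies at -104, counted from the start base as 0.
Hspa1a: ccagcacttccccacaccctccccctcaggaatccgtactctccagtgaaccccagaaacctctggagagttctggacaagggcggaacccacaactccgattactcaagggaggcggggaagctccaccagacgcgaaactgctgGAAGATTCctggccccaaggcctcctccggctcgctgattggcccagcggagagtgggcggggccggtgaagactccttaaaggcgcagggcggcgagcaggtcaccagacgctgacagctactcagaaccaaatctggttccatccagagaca
Hspa1b: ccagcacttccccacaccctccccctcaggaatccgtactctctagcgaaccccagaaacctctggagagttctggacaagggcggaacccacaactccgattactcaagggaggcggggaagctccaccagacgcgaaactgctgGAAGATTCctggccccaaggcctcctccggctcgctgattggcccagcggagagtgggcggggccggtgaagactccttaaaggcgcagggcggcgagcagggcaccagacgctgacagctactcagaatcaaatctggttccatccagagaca

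Hspa8, the constitutive cytosolic HSP70 that also uncoats clathrin vesicles, had 59866 and 82984 counts, or 4076 and 4235 CPM. It was 1.04-fold higher (1.03 to 1.05), so its level was nearly the same in both libraries. On a scale per length, CPM per kilobase of merged exons, Hspa8 was at 948 in complete medium, against 1.01 for Hspa1a and 2.53 for Hspa1b; without methionine the levels were 985, 3.63 and 8.68. Hspa8 thus stood 268-fold above the summed pair in complete medium and 80.0-fold above it without methionine, or 481.5-fold and 143.7-fold per kilobase of the principal transcripts. The inducible pair thus made up 0.247% (Wilson 0.210 to 0.290%) of the counts of these 3 genes in complete medium and 0.822% (0.763 to 0.886%) in methionine-free medium. Hspa8 shares 73.2% of its 50-base stretches with other annotated genes, and its 2 pseudogenes with the most counts held 92 and 73 (Gm8355) and 9 and 11 (Gm6210). The levels, ratios and shares of these 3 genes therefore depend on how shared reads were counted, which is not stated.

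The large HSP110-type relatives exchange the nucleotide of HSP70 and help it pull apart aggregates. Hsph1 (HSP105) had 5128 and 10057 counts and was 1.47-fold higher (1.42 to 1.52), just under the 1.5-fold used here, with an interval that reaches above it. Hspa4 had 7598 and 10647 counts and was 1.05-fold higher (1.02 to 1.08). Hspa4l had 455 and 656 counts and was 1.08-fold higher, and its interval of 0.957 to 1.22 held 1. Among these 3, only Hsph1 had a difference near 1.5-fold.

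The other HSP70 partners lay on either side of no difference. Bag1, a nucleotide exchange factor that also links HSP70 to the proteasome, had 1833 and 1719 counts and was 1.42-fold lower (1.33 to 1.52). Bag3, an exchange factor of selective autophagy and a well-known HSF1 target, had 67 and 90 counts, and its ratio of 1.01 had an interval of 0.726 to 1.40. Bag3 therefore did not share the difference of Hspa1a and Hspa1b in size. Its interval is wide in both directions and leaves out the spread between cultures, which is unknown. St13 (HIP), which holds HSP70 on its client, had 4112 and 6480 counts and was 1.18-fold higher (1.14 to 1.23). Hspa14, an atypical HSP70 that works at the ribosome with Dnajc2, had 2446 and 2330 counts and was 1.40-fold lower (1.32 to 1.48). Its exons share 321 bases with the same-strand gene Gm45902, at 123 and 179 counts.

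**Figure D2:**
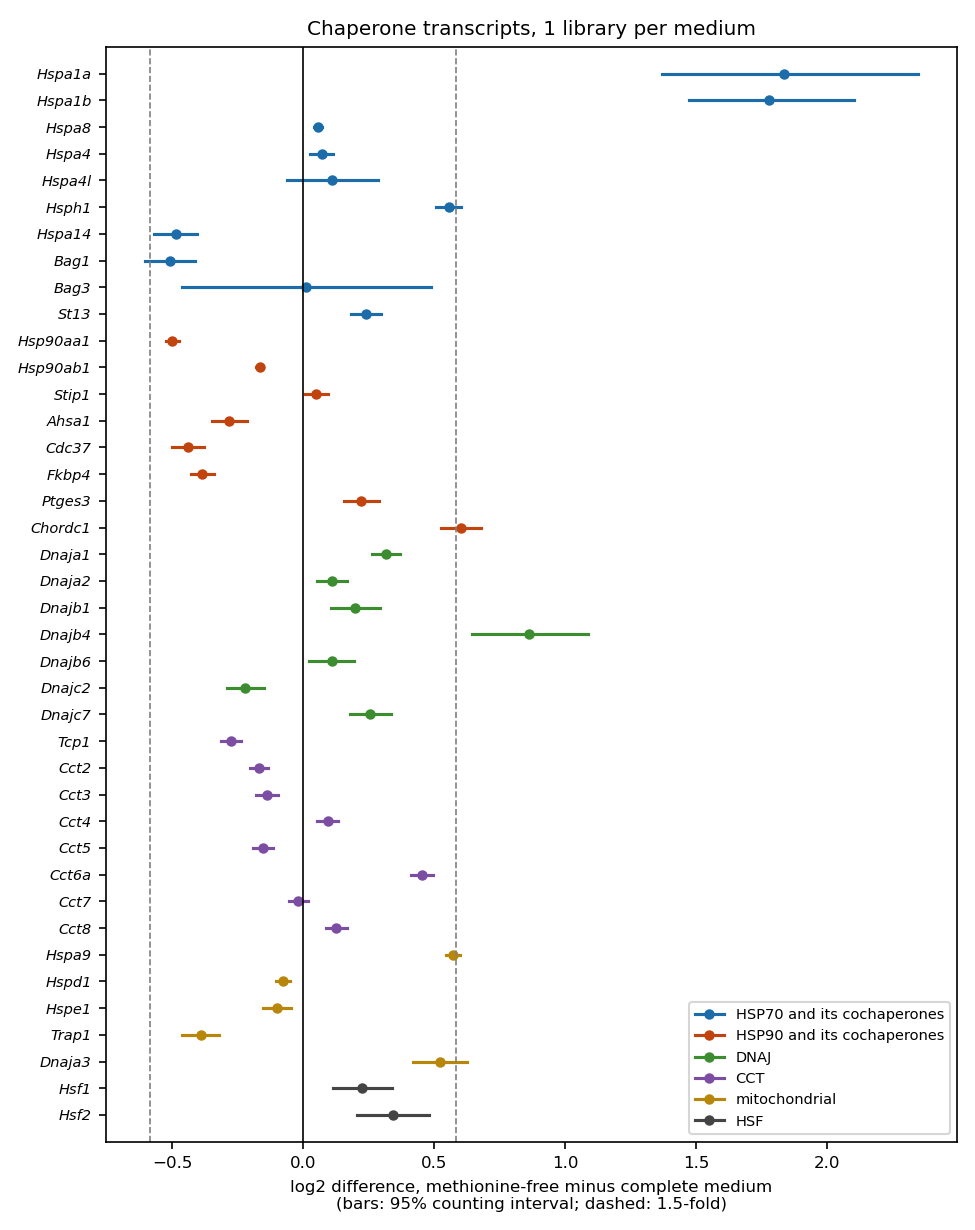
Log2 difference (horizontal axis, methionine-free minus complete medium) of the 40 measured chaperone genes, 1 row per gene and coloured by role, with bars for the 95% counting interval and dashed lines at 1.5-fold. Hspa1a, Hspa1b and Dnajb4 lie right of the upper line with their whole bars, the bar of Chordc1 crosses it, and no point lies left of the lower line.

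Of the 8 genes of HSP90 and its cochaperones, 1 was higher and none lower by 1.5-fold. The median log2 difference was -0.22, and 5 of the 8 were negative, as were 6211 of the 13041 measured genes. Hsp90ab1, the constitutive cytosolic HSP90 beta, had the most counts of all 42 genes in both libraries, 87454 and 103974, or 5955 and 5306 CPM, and was 1.12-fold lower (1.11 to 1.13). Hsp90aa1, the inducible HSP90 alpha, had 25969 and 24519 counts, or 1768 and 1251 CPM, and was 1.41-fold lower (1.39 to 1.44). The inducible HSP90 was therefore lower in the library in which the inducible HSP70 pair was higher. Per kilobase of merged exons Hsp90ab1 stood 4.41-fold above Hsp90aa1 in complete medium and 5.56-fold above it without methionine. Hsp90aa1 gave 22.9% of the counts of the pair in complete medium (Wilson 22.7 to 23.1%) and 19.1% without methionine (18.9 to 19.3%). Other annotated genes share 58.5% of its 50-base stretches, and its pseudogene with the most counts, Gm12346, held 324 and 254 counts.

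The HSP90 cochaperones act at set points of its cycle. Stip1 (HOP), which passes clients from HSP70 to HSP90, had 7759 and 10725 counts and was 1.04-fold higher (1.01 to 1.07). Cdc37, which brings kinases to HSP90, had 4466 and 4397 counts and was 1.36-fold lower (1.30 to 1.41). Fkbp4, an immunophilin of steroid receptor complexes, had 7812 and 7984 counts and was 1.31-fold lower (1.27 to 1.35). None of these 3 was past 1.5-fold. Ahsa1 (AHA1), which speeds up the ATPase of HSP90, had 3369 and 3699 counts and was 1.22-fold lower (1.16 to 1.27). Ptges3 (p23), which closes the cycle, had 3010 and 4685 counts and was 1.17-fold higher (1.11 to 1.22). The pseudogene Ptges3-ps, which holds 22.1% of its 50-base stretches, had 1070 and 1231 counts, and with those added the log2 difference of Ptges3 went from 0.22 to 0.12. Chordc1 (morgana), a heat-inducible HSP90 partner, was the only HSP90 cochaperone past 1.5-fold. The gene lies on chromosome 9 at 18292125 to 18317442, plus strand. It had 2133 and 4321 counts, or 145 and 221 CPM, and was 1.52-fold higher (1.44 to 1.60), with an interval that reaches below 1.5.

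Among the 7 cytosolic and nuclear DNAJ genes, 1 passed 1.5-fold upward, none downward, and 6 had a positive log2 difference, as had 6830 of the 13041 measured genes, with a median of 0.20. Dnajb4, a heat-inducible class B DNAJ gene on chromosome 3 (152178511 to 152210302, minus strand), had 240 and 583 counts, or 16.3 and 29.8 CPM, and was 1.82-fold higher (1.56 to 2.13). It was the least abundant of the 7 per length, at 1.86 CPM per kilobase in complete medium and 3.39 without methionine. Dnajb1 (HSP40), the classical heat-inducible partner of HSP70 had 1576 and 2415 counts and was 1.15-fold higher (1.08 to 1.22). With 1 library per medium, whether the difference between media is larger for Dnajb4 than for Dnajb1 could not be tested.

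None of the other DNAJ genes was past 1.5-fold. Dnaja1 and Dnaja2, the class A partners of HSP70 in refolding, had 4292 and 7130 counts and 4107 and 5921 counts. Dnaja1 was 1.25-fold higher (1.20 to 1.29) and Dnaja2 1.08-fold higher (1.04 to 1.12), and Dnaja1 overlaps the opposite-strand gene Smu1, at 1654 and 2725 counts. Dnajb6, which suppresses amyloid-like aggregation, had 1829 and 2632 counts and was 1.08-fold higher (1.02 to 1.15). Dnajc7, a scaffold that binds both HSP70 and HSP90, had 2162 and 3444 counts and was 1.19-fold higher (1.13 to 1.26). It shares 154 exon bases with Cnp, at 834 and 561 counts, and 287 with Nkiras2, at 314 and 593, both on the opposite strand. Dnajc2, the DNAJ protein of the ribosome-associated complex, was the exception with 3042 and 3481 counts, 1.17-fold lower (1.11 to 1.22). Its partner Hspa14 was also on the lower side, so both genes of that complex had negative log2 differences.

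The 8 CCT genes encode the subunits of a ring in which every subunit is present in equal number. None was 1.5-fold different in either direction, the median log2 difference was -0.08, and the summed subunit counts of 76082 and 99986 gave a ratio of 0.985 (0.976 to 0.994). Tcp1 (CCT1) had 10274 and 11336 counts and was 1.21-fold lower (1.18 to 1.24), Cct2 had 12450 and 14767 and was 1.12-fold lower (1.10 to 1.15), and Cct5 had 10329 and 12388 and was 1.11-fold lower (1.08 to 1.14). Cct3 had 8621 and 10447 counts and was 1.10-fold lower (1.07 to 1.13). Cct7, with 10386 and 13681 counts, was 1.01-fold lower, and its interval of 0.987 to 1.04 held 1. Cct4, with 8180 and 11650 counts, was 1.07-fold higher (1.04 to 1.10), and Cct8, with 8686 and 12653, 1.09-fold higher (1.06 to 1.12). On the opposite strand, Tcp1 shares 141 exon bases with Mrpl18, at 966 and 771 counts, Cct7 shares 214 with Pradc1, at 262 and 233, and Cct8 shares 192 with Usp16, at 1025 and 2450. All subunits but Cct6a thus lay between Tcp1 and Cct8, close to the same level in both media.

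Cct6a stood outside the other CCT genes. It had 7156 and 13064 counts, was 1.37-fold higher (1.33 to 1.41), and went from 9.41% (Wilson 9.20 to 9.62%) of the subunit counts in complete medium to 13.1% (12.9 to 13.3%) without methionine. The lowest share in complete medium was that of Cct6a, and without methionine that of Cct3, at 10.4%. Cct6a shares 452 exon bases with Psph on the opposite strand, a gene with 2212 and 1542 counts, and the labels do not say if strand was used in counting; the part of that overlap was not tested. Per kilobase of merged exons the highest CCT level was 3.60 times the lowest in complete medium and 3.52 times without methionine. Per kilobase of the principal transcript, which the annotation marks for all but Cct6a, the ratio was 1.93 and 1.63. The order of the subunits therefore depends on the length used.

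**Figure D3:**
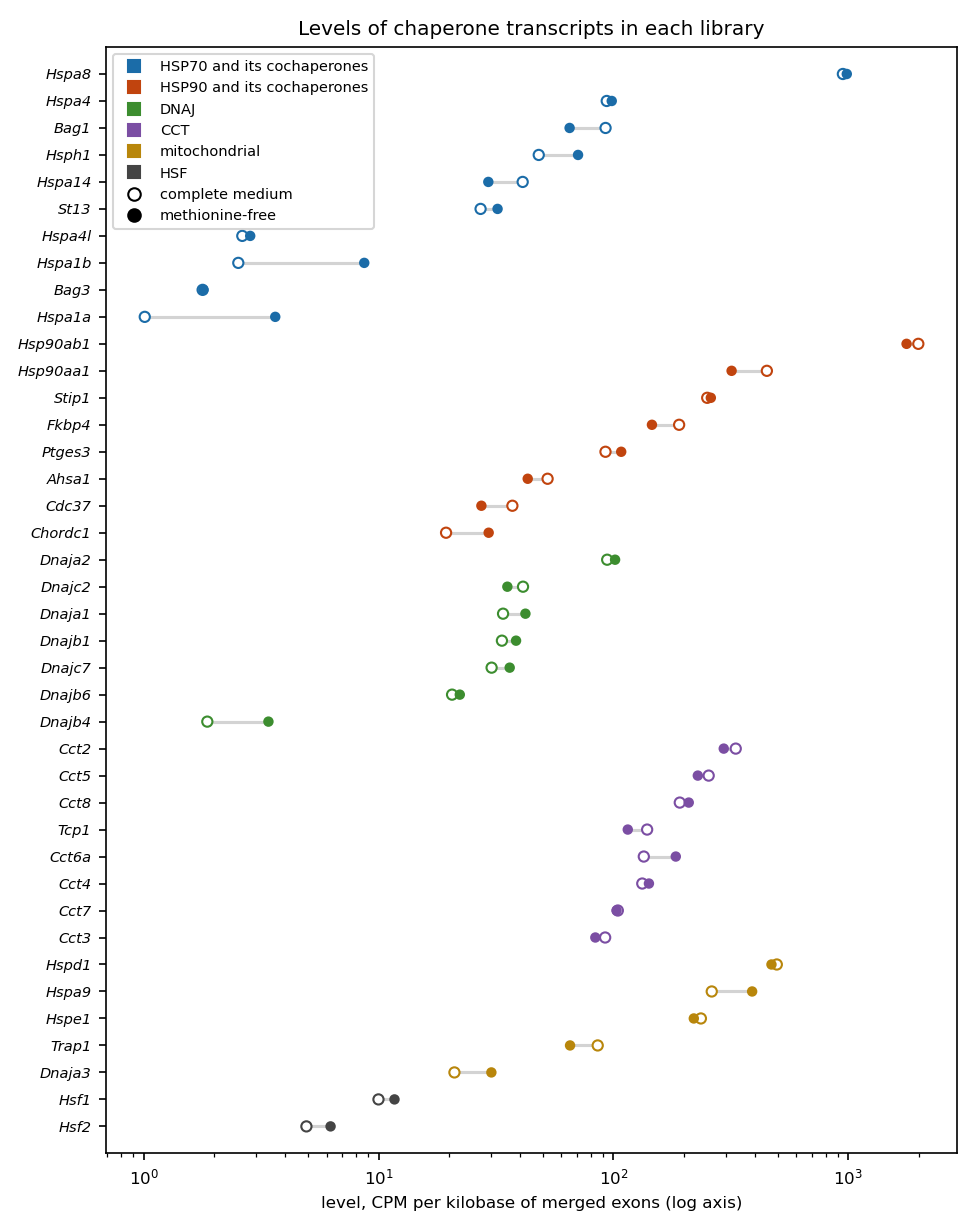
Level of each of the 40 measured chaperone genes in CPM per kilobase of merged exons (horizontal log axis), grouped by role, with open points for complete medium and filled points for methionine-free medium. Hsp90ab1 and Hspa8 have the highest levels, and Hspa1a, Hspa1b and Dnajb4, among the lowest, have the widest gaps between their points.

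None of the 5 mitochondrial genes was past 1.5-fold in either direction. Hspa9 (mortalin), the mitochondrial HSP70 that pulls proteins through the import channel and passes on iron-sulfur clusters, had 16585 and 32878 counts, or 1129 and 1678 CPM, and was 1.49-fold higher (1.46 to 1.51). Dnaja3 (TID1), its DNAJ partner in the matrix, had 1208 and 2315 counts and was 1.44-fold higher (1.34 to 1.54). Both lay just under 1.5-fold, with intervals that reach above it. Dnaja3 overlaps Coro7 on the opposite strand, at 682 and 687 counts.

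Hspd1 and Hspe1 encode the HSP60 barrel and its HSP10 lid, and they lie head to head on chromosome 1 with their starts overlapping. Hspd1 had 19241 and 24360 counts and was 1.05-fold lower (1.03 to 1.07). Hspe1 had 5100 and 6347 counts and was 1.07-fold lower (1.03 to 1.11). The balance of the pair was nearly the same in both libraries, with Hspd1 2.11-fold above Hspe1 per kilobase of merged exons in complete medium and 2.14-fold without methionine. Per kilobase of the principal transcripts the same ratios were 1.21 and 1.23. The genes share 112 exon bases on opposite strands, and 44.8% of the 50-base stretches of Hspd1 stand in other annotated genes, of which Hspd1-ps3 held 286 and 295 counts. Trap1, the mitochondrial HSP90, had 3237 and 3293 counts and was 1.31-fold lower (1.25 to 1.38), on the same side as cytosolic Hsp90aa1. Over the 5 mitochondrial genes the median log2 difference was -0.08. Their summed level was nevertheless higher without methionine, 3089 CPM in complete medium and 3531 CPM without it, of which Hspa9 held 1129 and 1678. Trap1 shares 54 exon bases with Dnase1 on the opposite strand, at 98 and 118 counts. Of the 5 genes only Hspa9, at a log2 difference of 0.57, shares no exon bases with a counted gene on the opposite strand, so without the others the median turns from negative to 0.57; the part of these overlaps was not tested.

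The transcription factor genes differed little. Hsf1, the main driver of the heat shock response, had 1041 and 1625 counts, or 70.9 and 82.9 CPM, and was 1.17-fold higher (1.08 to 1.27). Hsf2, which forms mixed trimers with HSF1, had 695 and 1175 counts, or 47.3 and 60.0 CPM, and was 1.27-fold higher (1.15 to 1.39). HSF1 is mainly controlled by its trimerisation and phosphorylation, which transcript counts do not measure.

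Promoters of 34 of the 42 genes are in the RefSeq table (GRCm38.p6, 44 promoters). Hspa8, Hspa9, Hsp90aa1, Hsp90ab1, Cct4, Hsf1, St13 and Dnajc2 are not among them. The core of a heat shock element, read as GAANNTTC or TTCNNGAA, stood in 18 of the 44 promoters (40.9%) and in 15.1% of all 32851 promoters of the table. These 2 words are their own reverse complements, so both strands are covered. By gene, 16 of the 34 had a core, against 17% of all genes in the table. Windows overlap, as for Hspd1 with Hspe1 and for the 2 starts each of Hsph1 and Dnajb6, so the 33 matches fall on 25 genome sites. A run of 3 alternating units (a GAANNTTC core followed by NN and GAA, on either strand, so that both cores overlap in it; added after the first search) stood in 7 of the 44 (15.9%), and in 0.603% of all. By gene these are 5 of the 34 (Chordc1, Dnajb6, Hsph1, Hspd1 and Hspe1), against 0.662% of all genes. A CCAAT box on either strand stood in 43.2% of the 44 and 37.4% of all, and TGATGNAA, the type of site that ATF4 with C/EBP factors binds, in 1 of the 44 (Hspa14) and in 3.97% of all.

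Most measured genes with a core were not past 1.5-fold. Of the 32 measured genes with a promoter in the table, 15 had a core, 4 of them past 1.5-fold, with a median log2 difference of 0.11 and a range of -0.44 to 1.84. The 17 without a core had none past 1.5-fold, a median of 0.07 and a range of -0.51 to 0.52. The 4 include Hspa1a and Hspa1b, which share reads and nearly all promoter bases and are not separate cases. Over all measured genes with a promoter in the table, 16.5% of the 1280 with a core and 14.5% of the 7986 without one were higher by 1.5-fold or more. Cdc37 and Fkbp4 had a core and were lower, while Dnajb1 had no core in this window. These matches describe the letters of the window and not occupied sites.

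Sequences with such a run are shown for Hsph1 and Chordc1, on the higher side, and for Hspe1, whose window holds the shared Hspd1 and Hspe1 start region and whose level was nearly the same in both media. Capitals mark every core and run of units as above. They lie at chr5:149636266-149636565 on the minus strand for Hsph1, chr9:18292017-18292316 on the plus strand for Chordc1 and chr1:55087898-55088197 on the plus strand for Hspe1. In Chordc1 and Hspe1 the words overlap in a longer run, which begins at -4 in Chordc1 and at -89 in Hspe1.
Hsph1: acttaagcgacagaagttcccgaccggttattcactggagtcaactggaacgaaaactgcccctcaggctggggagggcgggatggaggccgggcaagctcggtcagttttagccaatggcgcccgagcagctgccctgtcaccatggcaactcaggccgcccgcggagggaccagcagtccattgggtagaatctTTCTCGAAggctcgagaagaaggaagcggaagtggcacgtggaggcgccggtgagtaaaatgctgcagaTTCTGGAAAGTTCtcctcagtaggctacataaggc
Chordc1: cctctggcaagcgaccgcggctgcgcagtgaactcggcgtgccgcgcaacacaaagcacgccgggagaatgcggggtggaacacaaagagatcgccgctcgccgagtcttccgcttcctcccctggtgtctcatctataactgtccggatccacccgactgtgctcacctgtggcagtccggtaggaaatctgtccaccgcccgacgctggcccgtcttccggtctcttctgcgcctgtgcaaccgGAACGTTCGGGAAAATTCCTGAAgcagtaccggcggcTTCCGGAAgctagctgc
Hspe1: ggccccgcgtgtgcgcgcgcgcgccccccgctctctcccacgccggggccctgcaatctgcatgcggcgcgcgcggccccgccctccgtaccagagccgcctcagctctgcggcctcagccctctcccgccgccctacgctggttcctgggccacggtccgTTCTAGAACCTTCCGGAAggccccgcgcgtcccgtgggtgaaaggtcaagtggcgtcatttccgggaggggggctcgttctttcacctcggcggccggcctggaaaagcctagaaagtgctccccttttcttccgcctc

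**Figure D4:**
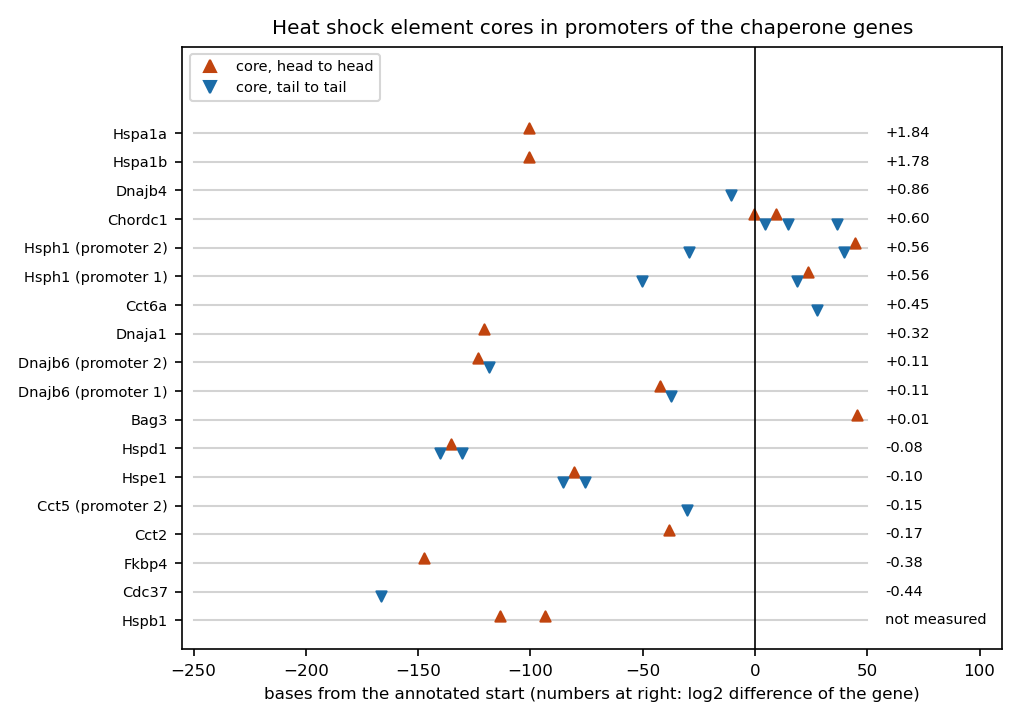
Positions of heat shock element cores (triangles up for GAANNTTC, down for TTCNNGAA) in the 18 promoters that hold one, from 250 bases before to 50 after the annotated start, ordered by the gene's log2 difference, printed at the right. Hspa1a and Hspa1b at the top have their core at the same place, and genes with a core run down to Cdc37 at -0.44; Hspb1, last, was not measured.

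The remaining pair of genes was hardly present. Hspb1 (HSP25), a small heat shock protein that holds unfolded clients without ATP, had 3 counts in complete medium and 0 in the other library, where a count of 0 allows up to 3 counts, or 0.153 CPM. Serpinh1 (HSP47), the collagen chaperone of the endoplasmic reticulum and the only one of the 42 outside the cytosol, nucleus and mitochondria, had 0 counts in both libraries, which allows up to 3 counts in each. Neither reached a mean of 10 counts, so no difference is given for them.

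Chaperone genes outside the 42 were read from lists by role, chosen with earlier results of these data known. The counts of each list stand beside all 13041 measured genes, of which 15.7% were higher and 18% lower by 1.5-fold or more. Of 29 measured further cytosolic chaperones and cochaperones, none was 1.5-fold higher while 6 were 1.5-fold lower, with a median of -0.19. They included Bag2, an inhibitor of the HSP70 ubiquitin ligase CHIP, at 555 and 389 counts and 1.90-fold lower (1.67 to 2.17), Hspa2, a testis-type HSP70, at 79 and 48 counts and 2.20-fold lower (1.51 to 3.21), and the small heat shock gene Hspb6, at 63 and 53 counts and 1.59-fold lower (1.08 to 2.33). Of 23 further DNAJ genes, 3 passed 1.5-fold upward and 1 downward, and their median was 0.21. Dnajb14, of the endoplasmic reticulum membrane, had 55 and 149 counts and was 2.03-fold higher (1.48 to 2.82), Dnajc18 had 264 and 591 and was 1.68-fold higher (1.45 to 1.95), and Dnajc9, a histone chaperone of dividing cells, had 2486 and 1884 and was 1.76-fold lower (1.66 to 1.87). The DNAJ genes in and outside the 42 thus had medians on the same side, which was also that of all measured genes, at 0.04.

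Prefoldin hands actin and tubulin to CCT, and of 9 measured genes of prefoldin and CCT helpers none was past 1.5-fold, with a median of 0.21; Pdcl3, a phosducin-like CCT helper, had the largest difference, 541 and 1013 counts and 1.40-fold higher (1.26 to 1.56). Of 16 further mitochondrial chaperones and proteases, 1 passed 1.5-fold upward and 1 downward, and the median was 0.04. The higher one was Dnajc28, a mitochondrial DNAJ gene, with 29 and 76 counts (1.96-fold, 1.27 to 3.13). Grpel2, a nucleotide exchange factor of Hspa9, had 379 and 748 counts and was 1.48-fold higher (1.31 to 1.68), and Grpel1, the main one, which was picked after its values were seen, had 1151 and 2060 and was 1.34-fold higher (1.25 to 1.44). Afg3l2, a protease of the inner membrane, had 2908 and 2157 counts and was 1.80-fold lower (1.70 to 1.90).

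The endoplasmic reticulum chaperones are the most similar set in function and in these libraries lay lower. Of 17 measured, 7 were at least 1.5-fold lower and 1 higher, with a median of -0.49, beside 0 lower and 4 higher of 40 and a median of 0.08 for the cytosolic and mitochondrial set. With 1 library per medium that difference between the sets could not be tested. Sdf2l1, part of a chaperone complex of the endoplasmic reticulum, had 1291 and 504 counts and was 3.42-fold lower (3.08 to 3.80), Fkbp2 had 341 and 206 and was 2.21-fold lower (1.85 to 2.64), and Dnajb9 (ERdj4) had 191 and 553 and was 2.17-fold higher (1.84 to 2.57).

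**Figure D5:**
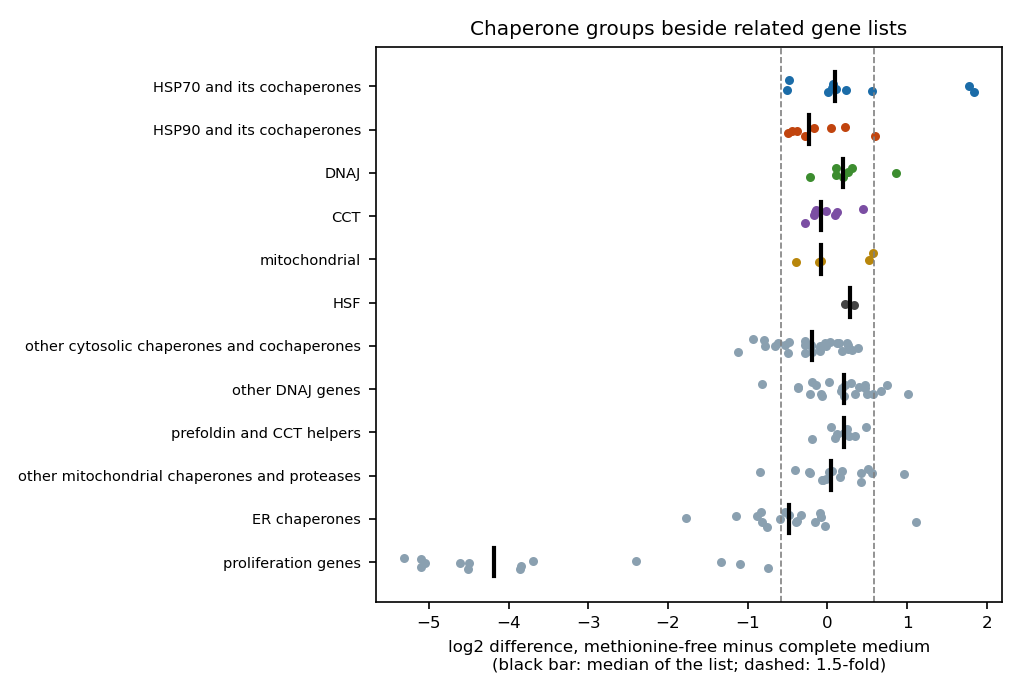
Log2 difference (horizontal axis, methionine-free minus complete medium) of each measured gene, 1 row per list, with a black bar at the list median and dashed lines at 1.5-fold; the spread of points within a row has no meaning. The 6 chaperone groups have medians from -0.22 to 0.28, the endoplasmic reticulum chaperones -0.49 and the proliferation genes -4.18.

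Proliferation and cell type genes give the setting. All 14 genes of a proliferation list (cyclins, mitotic and replication genes), chosen with earlier results known, were at least 1.5-fold lower without methionine. Their median log2 difference was -4.18. The part of that difference in the chaperone values was not tested. The 10 markers of CD8+ T cells were measured with none past 1.5-fold, and their summed level was 3621 CPM in complete medium and 3106 without methionine. Summed levels were 11.3 and 6.89 CPM for 5 B cell markers, 2.52 and 1.99 CPM for 10 myeloid and dendritic markers, 1.43 and 1.84 CPM for 6 erythroid and platelet markers and 169 and 142 CPM for 4 NK cell markers, of which Eomes, also expressed by CD8+ T cells, held 159 and 136 CPM and the NK-defining genes Ncr1 and Klrb1c 0 to 3 counts. The 3 CD4+ markers summed to 14.4 and 69.2 CPM, of which Zbtb7b held 10.3 and 64.7, while Cd4 itself had 9 and 11 counts.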

How the data were processed

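RNA of cultured splenic CD8+ T cells was sequenced in 1 library per medium. The authors deposited raw counts per Ensembl mouse gene, with no normalization, and the submitters' processing notes name the build mm10. Not given in the sources used here: aligner, counter, annotation, use of strand and treatment of reads that match several genes. Gene symbols, coordinates and lengths came from GENCODE M21 (GRCm38), which matched 54495 of 54532 identifiers, and promoters from RefSeq (GRCm38.p6).

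Libraries were scaled by TMM in edgeR 4.0.16 (R 4.3.3). In complete medium 1 count was 0.0681 CPM and without methionine 0.0510 CPM, and a count of 0 allows 3 counts, or 0.204 and 0.153 CPM. Folds carry an exact conditional (Clopper-Pearson) 95% interval and shares a Wilson 95% interval (scipy 1.17.1, Python 3.11.15), both for counting error only. The log2 difference uses a prior count of 0.5. Genes whose mean reached 10 counts were read, with size as the only criterion (1.5-fold), since no test was possible. The interval code was tested on simulated data. Shared sequence was read as 50-base stretches of a transcript found in other annotated genes.

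The members and lists were chosen with earlier results of these data known. All members are accounted for. From each related list at most the 3 genes with the largest absolute log2 difference and a mean of at least 50 counts were named. Grpel1 was named outside this rule, after its values were seen. Alternatives were DESeq2 1.42.0 size factors, total counts, a prior count of 2, other minimum counts, added pseudogene counts and a 2-fold threshold.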

Additional observations from a re-analysis of the deposited data

How the results depend on the processing

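With 1 library per medium no library could be left out, and the spread between cultures is unknown. No paired analysis was possible because each medium has 1 library and the columns carry no shared replicate number. Of the 40 measured chaperone genes, 4 were higher and 0 lower by 1.5-fold. At 2-fold, 2 were higher, Hspa1a and Hspa1b, which share reads. With a minimum mean of 1000 counts, chosen after seeing the data, 1 of 34 was higher. Without a minimum count, 1 was lower, Hspb1, with 3 and 0 counts. No gene changed sign under any alternative. DESeq2 size factors moved a log2 difference by at most 0.0047, total counts by at most 0.0079 and a prior count of 2 by at most 0.030. Pseudogene counts moved Ptges3 from 0.22 to 0.12. Without the 10 genes that overlap a counted gene on the opposite strand, an alternative also chosen after seeing the data, the median was 0.11 for DNAJ, -0.15 for CCT and 0.57 for the mitochondrial genes, of which Hspa9 alone was left. Depth limits Hspa1a, Hspa1b, Bag3 and Dnajb4 most, since they had the fewest counts among the measured genes.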
